A study of Mus musculus with 8 samples.

Results

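The small heat shock proteins and the stress-inducible chaperones are described here across the 3 cell lines, with 10 genes in all. They comprise the small heat shock proteins Cryab, Hspb1, Hspb2, Hspb6, Hspb7 and Hspb8 and the inducible chaperones Hspa1a, Hspa1b, Hsph1 and Dnajb1. The genes were chosen by symbol. A probe set was taken when the RefSeq transcript that names it maps to 1 of these symbols, and probe sets with identical values counted once. All 10 genes were found, each with 1 distinct probe set, among 22523 probe sets of which 18294 map to 15653 genes with a symbol.

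The arrays compare cells that divide asymmetrically (ASYM) with cells that divide symmetrically, either without p53 (SYM) or with p53 and extra IMPDH II (p53SYM). IMPDH II limits how fast cells make guanine nucleotides, and p53 lowers its expression. All lines descend from p53-null mouse fetal fibroblasts. RNA of 8 cultures was measured on 1 Affymetrix array each, and the replicates are called biological by the depositors.

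Ind-8 cells (ASYM, n = 3 arrays) carry a wild-type mouse p53 cDNA behind a modified metallothionein promoter, which zinc activates. Con-3 cells (SYM, n = 3) are p53-null and have the same promoter vector with no cDNA. The sample labels describe them as the congenic parent of Ind-8, whereas the study describes a co-derived vector control. tI-3 cells (p53SYM, n = 2) come from Ind-8 and express IMPDH II from a constitutive transgene in addition to the zinc-responsive p53. Cultures of every line were fed medium with 65 µM ZnCl2 for 48 h and 5 µg/ml puromycin. The tI-3 medium also held G418, given as 1 µg/ml in the labels and in another unit in the methods. Each state is 1 cloned line, so state and line cannot be told apart, and for tI-3 neither can the transgene and G418.

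Small heat shock proteins bind unfolding proteins without using ATP and hold them in a state from which they can be refolded. The HSP70 proteins then refold such clients with ATP, J-domain proteins of the HSP40 family deliver the clients and start ATP hydrolysis, and HSP110 proteins exchange the nucleotide. In stressed cells the heat shock factor HSF1 binds arrays of inverted GAA units upstream of many of these genes and raises their transcription, whereas some small heat shock proteins, such as Cryab and Hspb1, are also abundant in muscle, lens and fibroblast-like cells with no stress.

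To show where such units lie, the 250 bases upstream of each annotated start were read from RefSeq promoters of build GRCm38.p6, which hold 8 of the 10 genes in 11 windows. Cryab and Hspb2 have no window in the table. Both strands were searched for a unit pair of the heat shock element, GAANNTTC or TTCNNGAA, each of which is its own reverse complement. Such a pair was found upstream of 5 of the 8 genes, namely Hspb1, Hspb6, Hspa1a, Hspa1b and Hsph1, and in 12.8% of the 32851 promoters of the table. Hspb7, Hspb8 and Dnajb1 had no match to these letters. None of the 8 genes matched the longer array GAANNTTCNNGAA or TTCNNGAANNTTC, which is found in 0.466% of all promoters and contains the pair. The TATA box TATAAA was matched at 1 gene, Hspb6, 29 bases before its second annotated start, and in 12.4% of all promoters. The window of that start, which also holds the unit pair of Hspb6, lies wholly inside the annotated Hspb6 gene. The p53 binding motif (1 decamer of its consensus) was matched at 1 gene, Hsph1, and in 7.13% of all promoters, again with both strands searched. A gene counted as matched when any of its windows matched, whereas each percentage is a share of single promoters. A match is a description of letters in the window and not of a bound site.

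The windows of Hspb1, Hspa1a and Hspa1b are printed because these genes have both a window and a difference between the lines, with GAA unit pairs in capitals. The Hspb1 window is on the plus strand at chr5:135887669-135887918 and holds 2 pairs. The Hspa1a window is on the minus strand at chr17:34972157-34972406 and the Hspa1b window on the minus strand at chr17:34959239-34959488, with 1 pair each, 104 bases before the start. All 3 windows end at the base before the transcript start and overlap no annotated gene. Hspa1a and Hspa1b have identical bases at 247 of these 250 positions (98.8%). They are near-identical copies of 1 HSP70 gene that lie on chromosome 17, so probes for 1 copy may also detect RNA of the other, and values of both are uncertain for that reason.
Hspb1: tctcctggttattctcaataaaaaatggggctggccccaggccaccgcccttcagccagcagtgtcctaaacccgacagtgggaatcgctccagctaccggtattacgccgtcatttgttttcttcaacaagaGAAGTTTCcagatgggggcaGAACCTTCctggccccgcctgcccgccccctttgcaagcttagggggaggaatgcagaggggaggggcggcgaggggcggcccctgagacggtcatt
Hspa1a: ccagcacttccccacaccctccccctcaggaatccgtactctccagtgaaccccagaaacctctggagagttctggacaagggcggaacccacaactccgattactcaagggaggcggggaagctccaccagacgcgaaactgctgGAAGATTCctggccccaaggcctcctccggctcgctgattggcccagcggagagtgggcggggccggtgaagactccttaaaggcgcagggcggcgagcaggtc
Hspa1b: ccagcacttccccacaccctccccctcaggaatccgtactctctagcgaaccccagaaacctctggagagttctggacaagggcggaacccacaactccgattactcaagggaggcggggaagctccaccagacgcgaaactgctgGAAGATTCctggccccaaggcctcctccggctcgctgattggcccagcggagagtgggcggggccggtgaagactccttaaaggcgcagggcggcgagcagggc

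**Figure D1:**
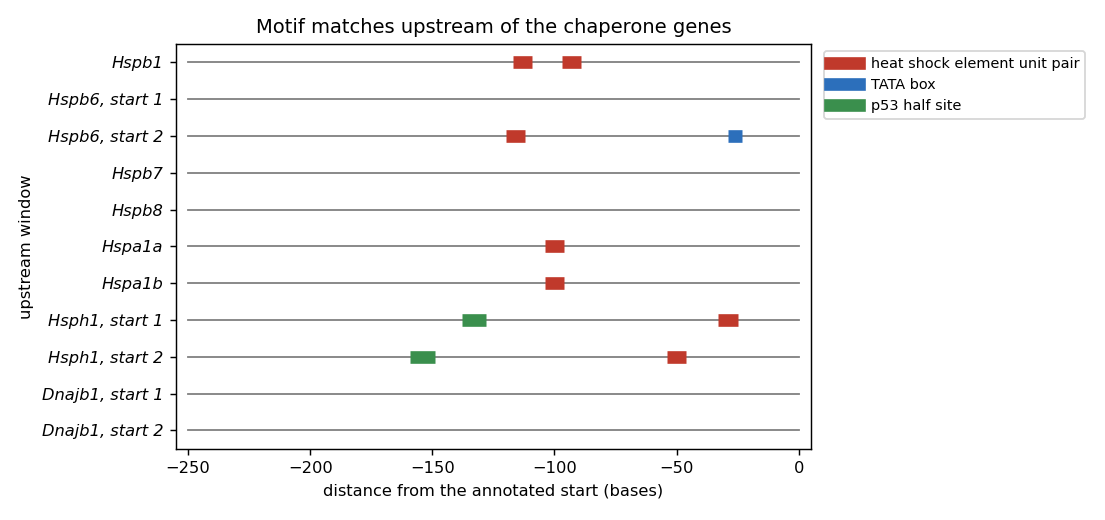
Matches in the 250 bases upstream of 11 annotated starts of 8 genes by distance from the start in bases, 1 line per window, for heat shock element unit pairs, the TATA box and the p53 motif (colours in the legend). Hspb1 has 2 unit pairs, from 117 to 110 and from 97 to 90 bases before its start, and Hspb7, Hspb8 and Dnajb1 have none.

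The labels were first checked on genes that p53 controls. Cdkn1a, an inhibitor of cyclin-dependent kinases, had log2 values of 9.70, 9.70 and 9.59 in Ind-8, 5.73, 5.81 and 6.03 in Con-3, and 7.55 and 7.33 in tI-3. Its order of lines, Ind-8 above tI-3 above Con-3 with no overlap, follows the p53 genotype in that the p53-null line is lowest. Mdm2, the ubiquitin ligase for p53, had the same order, at 10.71 to 11.19, 9.56 to 9.67 and 8.79 to 9.02. The Trp53 probe set read 5.68, 5.87 and 5.80 in Ind-8, 5.21, 5.29 and 5.27 in Con-3 and 5.60 and 5.69 in tI-3. By limma it was called higher in Ind-8 than in Con-3, a call kept in each of 17 alternatives (0.49 to 0.59). It was also called higher in tI-3 than in Con-3, a call lost with the hybridization covariate (0.37, adjusted p = 0.0616) and without tI-3 replicate 2 (0.34). Its probes may lie outside the cDNA, so it checks the genotype only weakly. The Impdh2 probe set was not higher in tI-3 (12.34 and 12.38) than in Con-3 (12.51 to 12.56), with a log2 difference of -0.17 (95% interval -0.37 to 0.02, limma adjusted p = 0.182). Both tI-3 arrays were above all 3 arrays of Ind-8 (12.16 to 12.22), the line they come from, but the difference did not pass (Ind-8 minus tI-3 -0.17, 95% interval -0.36 to 0.03, limma adjusted p = 0.163, from -0.29 to -0.15 over 17 alternatives). From Con-3 to Ind-8 it fell by 0.34 (limma adjusted p = 0.0108). Its probes may not match the transgene, so it checks the label only weakly. The zinc-responsive metallothioneins Mt1 and Mt2 were at 13.47 to 13.95 and 12.94 to 13.56 in all 8 arrays. No array is from a culture without zinc, so these levels cannot check the zinc treatment. Mt2 was lower in tI-3 (13.19 and 12.94) than in Con-3 (13.38 to 13.56), and fell by 0.39 (limma adjusted p = 0.0248). That call was lost without Con-3 replicate 2 (-0.33, adjusted p = 0.0867) or tI-3 replicate 2 (-0.26, adjusted p = 0.217), with the hybridization covariate (-0.30, adjusted p = 0.129) and after renewed quantile normalization (-0.18, adjusted p = 0.253), in a limma range of 0.0082 to 0.253.

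Of 8 fibroblast markers, 7 or 8 on each array lay above 4.30, the level under which the dimmest 25% of probe sets lie. Vim had the highest signal of 8 such markers on each array, and the log2 of their summed signal was 15.12 to 15.26 in Ind-8, 14.77 to 14.97 in Con-3 and 14.69 and 14.71 in tI-3. Such ranks and sums are of signal on different probe sets, so they do not rank genes by RNA amount. The Thy1 probe set lay at 3.81 to 4.63, around that dim end. Smooth muscle markers, some of which fibroblasts share, summed to 14.64 to 14.92 in Ind-8, 14.50 to 14.81 in Con-3 and 13.36 and 13.39 in tI-3. Acta2 had the highest signal of them, and Myh11 (3.39 to 3.92) lay below 4.30. In tI-3 against Con-3, 4 of the 6 fell by limma, where 15.1% of all probe sets did, with log2 changes of -4.29 for Actg2, -3.37 for Cnn1, -2.75 for Tagln and -0.89 for Acta2. The rank product called 3 of the 6 lower there, where it called 1.67% of all probe sets lower. In Ind-8 against tI-3, 5 of the 6 were higher in Ind-8 and 1 lower by limma (15.6% and 15.5% of all probe sets), 4 were higher by rank product (1.59%), and the median log2 change was 2.22. Of the 8 fibroblast markers, 3 also fell in tI-3 against Con-3, with log2 changes of -2.68 for Col3a1, -1.06 for Col1a1 and -1.04 for Pdgfra (limma adjusted p = 0.000621, 0.00474 and 0.00301), where 15.1% of all probe sets fell. Another 3 rose, with log2 changes of 0.28 for Fn1, 0.33 for Pdgfrb and 0.37 for Thy1 (limma adjusted p = 0.0482, 0.03 and 0.0275), where 10.2% of all probe sets rose, and the median of the list was -0.12. In Ind-8 against tI-3, 5 of the 8 were higher in Ind-8 and 1 lower (15.6% and 15.5% of all probe sets). In Ind-8 against Con-3, 2 of the 8 rose and 1 fell by limma (10.9% and 11% of all probe sets). The rises were 0.70 for Fn1 and 0.38 for Pdgfrb (limma adjusted p = 0.000321 and 0.00987). Of the 6 smooth muscle markers, 1 rose there and 0 fell. The part of these markers in the rises of Cryab and Hspb1 was not tested. The markers that fell in tI-3 against Con-3, 4 for smooth muscle and 3 for fibroblasts, were low on the same tI-3 arrays on which Hspb1, Hspa1a, Hspa1b, Hsf1 and Dnaja4 were lowest, and their part in those results was not tested. The summed levels were 8.13 to 8.32 for 6 skeletal muscle markers, led by Acta1, and 6.57 to 7.29 for 5 cardiac markers, led by Tnnt2. They were 5.88 to 6.38 for 4 epithelial markers, led by Krt8 on 7 arrays, and 6.39 to 7.13 for 3 endothelial markers, led by Kdr, and the blood marker Ptprc, the only 1 of its 3 with a probe set by name, lay at 3.37 to 3.75.

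Array medians ran from 6.12 to 6.19. One array stood apart in control probe sets, which were left out of the tests except in 1 alternative that kept them. On Con-3 replicate 3 a probe set for ribosomal RNA of the small subunit was at 11.38, against 7.67 on the next highest array. The mean of 14 hybridization control probe sets, spiked into the sample after labelling, was 8.98 to 9.04 on the Ind-8 arrays, 9.05, 9.16 and 9.62 on the Con-3 arrays and 9.43 and 9.71 on the tI-3 arrays. That level was therefore higher on both tI-3 arrays and on Con-3 replicate 3. Differences of single genes named below as called are also given with it as a covariate where this ended the call. Every array was also left out in turn for these genes. Calls of the cell type markers and of the chaperonin subunits are given from the main fits alone.

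A difference was called by limma, a linear model with moderated variances, at a Benjamini-Hochberg adjusted p under 0.05 over all 22523 probe sets. The rank product test of the study's methods, which ranks differences between pairs of arrays, called it at a proportion of false positives (pfp) under 0.05. In Ind-8 against Con-3, 2 of the 10 genes rose and 0 fell by limma, where 10.9% of all probe sets rose and 11% fell. The rank product also called 2 up and 0 down, where it called 2.22% of all probe sets up and 1.43% down. Both counts are Cryab and Hspb1. At an unadjusted p under 0.05 the limma counts were 4 up and 0 down, where 15.5% of all probe sets were up and 17.9% down.

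In Ind-8 against tI-3, 4 of the 10 genes were higher in Ind-8 and 0 lower by limma, where 15.6% of all probe sets were higher and 15.5% lower. By rank product 3 were higher and 0 lower, against 1.59% and 0.435% of all probe sets, and at an unadjusted p under 0.05 in limma 4 were higher and 0 lower, against 20.3% and 23.6%. In tI-3 against Con-3, 1 gene rose and 3 fell by limma, where 10.2% of all probe sets rose and 15.1% fell. By rank product 1 rose and 0 fell, against 0.635% and 1.67% of all probe sets, and at an unadjusted p under 0.05 in limma 2 rose and 3 fell, against 17.3% and 20.0%. The median log2 change of the 10 genes was 0.23, 0.13 and -0.03 in these comparisons, in the order given, and that of all probe sets was -0.06, -0.06 and 0.04. Some counts fell with 1 array left out. For Ind-8 against tI-3 limma called 2 without tI-3 replicate 2, and the rank product 1 without any Ind-8 array or tI-3 replicate 2. For tI-3 against Con-3 limma called 2 without tI-3 replicate 1 and 1 without tI-3 replicate 2, and the rank product 0 without either. The limma counts of both comparisons with tI-3 include Hspa1a and Hspa1b. Their probes may detect the same RNA, so 1 signal may be counted under both names beside the shares of all probe sets. The comparisons share arrays and are not independent of each other.

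**Figure D2:**
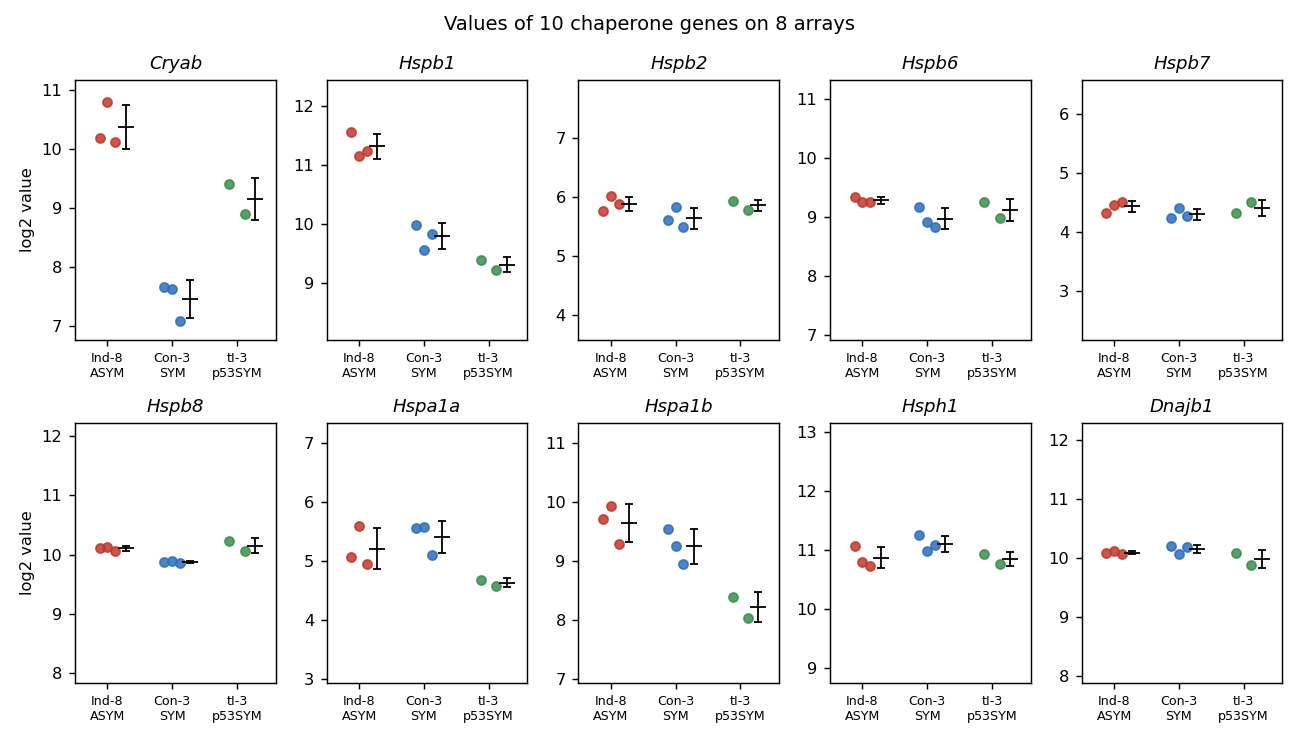
Log2 values of the 10 genes, 1 panel per gene, with points for arrays, a black bar with whiskers for the mean ± SD of each line (n = 3, 3 and 2) and y axes of equal span. Cryab has 3 separate levels, Hspb1 is higher in Ind-8 than in both other lines, and Hspa1b is lower in tI-3 than in both other lines.

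Cryab, or alpha B-crystallin, is a small heat shock protein that binds intermediate filaments and unfolding proteins. Its log2 values were 10.19, 10.80 and 10.12 in Ind-8, 7.66, 7.62 and 7.09 in Con-3, and 9.41 and 8.90 in tI-3. All 3 Ind-8 arrays were above both tI-3 arrays, which were above all 3 Con-3 arrays. Con-3 replicate 3 was the lowest array and Ind-8 replicate 2 the highest. Line means were 10.37 ± 0.37 (SD, n = 3), 7.46 ± 0.32 (SD, n = 3) and 9.15 ± 0.36 (SD, n = 2). On these arrays, which measure RNA of whole cultures, RNA per cell and the share of cells that hold the RNA cannot be told apart. The study reports, without showing the data, that Cryab protein was raised in both sister cells of asymmetric divisions.

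Cryab rose 7.52-fold in Ind-8 against Con-3, a log2 change of 2.91 (SE 0.21, limma adjusted p = 2.27e-05, rank product pfp = 0). Without Con-3 replicate 3 the log2 change was 2.73 (limma adjusted p = 0.000134). Between tI-3 and Con-3, which differ in p53 and in the transgene, it was 3.23-fold higher in tI-3, a log2 change of 1.69 (SE 0.24, limma adjusted p = 0.000699, pfp = 0.0127). With a single tI-3 array the rank product pfp was 0.413 without replicate 1 and 0.416 without replicate 2, whereas in limma the log2 change was 1.44 and 1.95 and the call was kept. Without Con-3 replicate 3 it was 1.51 (limma adjusted p = 0.00235). Between the p53-expressing lines it was 2.33-fold higher in Ind-8, a log2 change of 1.22 (SE 0.24, limma adjusted p = 0.00467, pfp = 0.0411). This last difference had the least margin. With the hybridization controls as a covariate it was 0.52 with an adjusted p of 0.328 by limma, and without tI-3 replicate 2 it was 0.96 with an adjusted p of 0.0606, in a range of 0.002 to 0.328 over 17 alternatives. Leaving out any of the 5 arrays also took its pfp above the threshold, to between 0.0559 and 0.225, as did renewed quantile normalization (0.0528) and the filter at the 25th percentile (0.0635).

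Hspb1, or HSP27 (HSP25 in mouse), is a small heat shock protein that also acts on actin filaments. Its upstream window holds the 2 unit pairs shown above. Values were 11.56, 11.15 and 11.24 in Ind-8, 9.98, 9.56 and 9.83 in Con-3 and 9.39 and 9.22 in tI-3. The Ind-8 arrays stood above all 5 others, and the lowest Con-3 array was above both tI-3 arrays. The means were 11.31 ± 0.21 (SD, n = 3), 9.79 ± 0.22 (SD, n = 3) and 9.30 ± 0.13 (SD, n = 2).

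Hspb1 rose 2.88-fold in Ind-8 against Con-3, a log2 change of 1.52 (SE 0.14, limma adjusted p = 7.7e-05, pfp = 0.00311). Against tI-3, which shares the p53 cDNA, Ind-8 was 4.03-fold higher, a log2 change of 2.01 (SE 0.15, limma adjusted p = 2.86e-05, pfp = 0.00163). Both calls were kept in each of 17 limma alternatives, with adjusted p up to 0.000977 and 0.00549. Without Con-3 replicate 3 the first log2 change was 1.55, and the change against tI-3 was 2.10 without tI-3 replicate 1 and 1.92 without replicate 2. So Hspb1 and Cryab were both highest in Ind-8, but only Cryab was also higher in tI-3 than in Con-3. Between tI-3 and Con-3, Hspb1 fell by 0.49 on the log2 scale (95% interval -0.83 to -0.14, limma adjusted p = 0.0414), and the rank product did not call it (pfp = 0.492). That small difference lost its limma call in 7 of 17 alternatives, with adjusted p of 0.0522 without Ind-8 replicate 3, 0.114 without Con-3 replicate 1, 0.0842 without Con-3 replicate 3, 0.0782 without tI-3 replicate 1 and 0.24 without tI-3 replicate 2. The others were renewed quantile normalization (0.11) and the hybridization covariate (0.135). Its change lay between -0.60 and -0.37 over all 17 and its adjusted p between 0.0115 and 0.24.

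**Figure D3:**
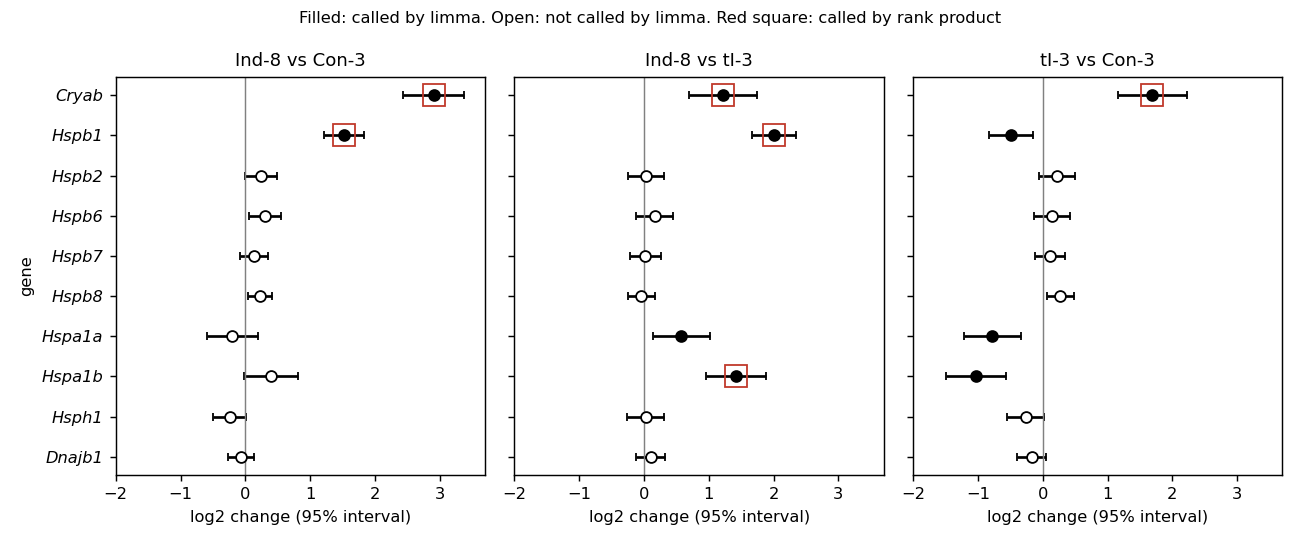
Log2 change of the 10 genes in the 3 comparisons, first-named line minus second, with 95% intervals from limma on the x axis, filled points for limma calls and red squares for rank product calls. Cryab is to the right of 0 in each panel, from 1.22 to 2.91, and Hspb2, Hspb6, Hspb7, Hspb8, Hsph1 and Dnajb1 have no call in any.

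The 4 remaining small heat shock proteins were not called by limma or the rank product in any comparison. Hspb2, which like Cryab lies on chromosome 9 and is best known from muscle, was at 5.76 to 6.01 in Ind-8, 5.48 to 5.83 in Con-3 and 5.78 to 5.92 in tI-3. These ranges overlap between all lines. Its difference between Ind-8 and Con-3 was 0.24 (95% interval -0.01 to 0.49, limma adjusted p = 0.166), against 2.91 for Cryab. The RefSeq annotation places Hspb2 inside the span of Cryab.

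Hspb6, or HSP20, which muscle holds in quantity, was at 9.34, 9.24 and 9.24 in Ind-8, 9.17, 8.91 and 8.83 in Con-3 and 9.25 and 8.98 in tI-3. The Ind-8 arrays were above the Con-3 arrays without overlap, by 0.31 (95% interval 0.06 to 0.55, limma adjusted p = 0.0808), which did not pass. Without Con-3 replicate 1 that difference was 0.40 and passed, with an adjusted p of 0.0289, the lowest in a limma range that reaches 0.397 over the alternatives. It also passed with replicate numbers as a block, at an adjusted p of 0.0368. Hspb8, or HSP22, works with the co-chaperone Bag3 in clearing misfolded proteins. It was at 10.12, 10.13 and 10.06 in Ind-8, 9.87, 9.90 and 9.86 in Con-3 and 10.24 and 10.06 in tI-3. Its Con-3 arrays were the lowest 3, with a log2 difference of 0.23 to Ind-8 (95% interval 0.04 to 0.41, limma adjusted p = 0.0865) and of 0.27 to tI-3 (0.06 to 0.48, limma adjusted p = 0.0614). The latter passed after renewed quantile normalization, at 0.38 with an adjusted p of 0.00968, and with a trended prior, at 0.27 with an adjusted p of 0.0375, in a limma range of 0.00968 to 0.315. Hspb7 (4.24 to 4.51), a cardiovascular member of the family, lay near the dim end, at the 26.8th percentile of all probe sets, and its lines overlapped.

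The HSP70 genes Hspa1a and Hspa1b encode the main stress-inducible HSP70. Hspa1b was at 9.71, 9.93 and 9.29 in Ind-8, 9.55, 9.25 and 8.95 in Con-3 and 8.40 and 8.05 in tI-3. Both tI-3 arrays were below all others, and the Ind-8 and Con-3 arrays overlapped. Between Ind-8 and tI-3 the fold was 2.68, a log2 change of 1.42 (SE 0.21, limma adjusted p = 0.00111, pfp = 0.0189). From Con-3 to tI-3, Hspa1b fell by 1.03 on the log2 scale (SE 0.21, limma adjusted p = 0.00523) and the rank product did not call it (pfp = 0.0677).

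Both Hspa1b differences rest on 2 tI-3 arrays. Without tI-3 replicate 2 the change from Con-3 was -0.85 with an adjusted p of 0.0656, the highest in a limma range that starts at 0.000641. With the hybridization controls as a covariate the difference between Ind-8 and tI-3 was 0.85 with an adjusted p of 0.103, in a limma range of 0.0002 to 0.103. Its pfp was above the threshold without any Ind-8 array or tI-3 replicate 2, at 0.0746 to 0.123. For Ind-8 against Con-3 the log2 difference was 0.39 (95% interval -0.02 to 0.81, limma adjusted p = 0.175). It passed with replicate numbers as a block, at 0.39 with an adjusted p of 0.0452, in a limma range of 0.0452 to 0.736.

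Hspa1a, whose probe set may read the same RNA as noted, was at 5.07, 5.60 and 4.95 in Ind-8, 5.55, 5.57 and 5.09 in Con-3 and 4.68 and 4.57 in tI-3. As for Hspa1b, the tI-3 arrays were the lowest 2, and the Ind-8 and Con-3 arrays overlapped. The tI-3 values of Hspa1a lie near the dim end of 4.30, so the sizes of its differences from tI-3 are uncertain. Hspa1a fell by 0.78 from Con-3 to tI-3 on the log2 scale (SE 0.20, limma adjusted p = 0.016) and was 0.57 higher in Ind-8 than in tI-3 (SE 0.20, limma adjusted p = 0.049), with no rank product call (pfp = 0.178 and 0.385). The fall from Con-3 lost its limma call without Con-3 replicate 2 (-0.69, adjusted p = 0.0547), without tI-3 replicate 1 (-0.83, adjusted p = 0.0574), without tI-3 replicate 2 (-0.72, adjusted p = 0.109) and with the hybridization covariate (-0.52, adjusted p = 0.109), in a range of 0.00249 to 0.109. The difference between Ind-8 and tI-3 lost it in 9 of 17 alternatives, with adjusted p from 0.00663 to 0.886. It was 0.096 in place of 0.57 with the hybridization covariate, with an adjusted p of 0.886 by limma. The call was also lost without Ind-8 replicate 1 (adjusted p = 0.0645) or 2 (0.124), Con-3 replicate 1 (0.0524) or 2 (0.058), tI-3 replicate 1 (0.114) or 2 (0.218), after centring (0.0663) and with a trended prior (0.0501). The part that hybridization played in the lower HSP70 values of tI-3 was not tested beyond this covariate.

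Hsph1, the HSP110 nucleotide exchange factor of HSP70, was at 11.07, 10.81 and 10.74 in Ind-8, 11.26, 10.99 and 11.09 in Con-3 and 10.93 and 10.76 in tI-3. The Con-3 arrays were above both tI-3 arrays, by 0.27 (95% interval for tI-3 minus Con-3 -0.55 to 0.02, limma adjusted p = 0.159), and the Ind-8 arrays overlapped both lines. Dnajb1, the HSP40 partner of inducible HSP70, was at 9.88 to 10.21 on all 8 arrays and its lines overlapped. Its log2 differences were -0.07 (95% interval -0.27 to 0.13), 0.10 (-0.12 to 0.33) and -0.17 (-0.39 to 0.05) in the order Ind-8 against Con-3, Ind-8 against tI-3 and tI-3 against Con-3.

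The genes whose profiles were most like Cryab and Hspb1 were sought among 973 distinct probe sets of other genes with line means that differ by at least 1 log2 unit, by Pearson r over the 8 arrays. For Cryab they were Igf2r (r = 0.995), Amn1 (0.992), Gabarap (0.991), Fam214a (0.990) and Trp53inp1 (0.989). These genes and arrays share the line means, which r mostly reflects. Igf2r, the receptor that clears IGF2 and carries lysosomal enzymes, had line means of 9.01, 7.55 and 8.43 in Ind-8, Con-3 and tI-3, and Trp53inp1, a p53-induced gene, had 8.02, 4.37 and 6.67. For Hspb1 they were Ltbp2 (0.991), Nipal4 (0.987), Loxl3 (0.983), Pdgfc (0.982) and Trim16 (0.982). Ltbp2, a matrix protein of elastic fibres, had line means of 10.60, 8.80 and 7.97, with Ind-8 highest and tI-3 lowest as for Hspb1. Cryab and Hspb1 had an r of 0.684 with each other.

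The wider chaperone system was read from 7 lists of 74 genes, of which 69 had a probe set by name. In Ind-8 against Con-3, 10 of the 69 rose and 9 fell by limma, where 10.9% and 11% of all probe sets did, with a median log2 change of -0.07 beside -0.06 over all probe sets. In Ind-8 against tI-3, 14 were higher in Ind-8 and 7 lower, where 15.6% and 15.5% of all probe sets were, with a median of 0.10 beside -0.06. In tI-3 against Con-3, 6 rose and 17 fell, where 10.2% and 15.1% of all probe sets did, with a median of -0.12 beside 0.04. With the hybridization covariate the limma counts of called genes were 8, 4 and 15 in these comparisons, in that order, and the shares of all probe sets called in the same fit were 13.6%, 4.53% and 18.1%. The rank product called 1 up and 1 down of the 69 in Ind-8 against Con-3 (2.22% and 1.43% of all probe sets), 1 up and 0 down in Ind-8 against tI-3 (1.59% and 0.435%) and 0 up and 2 down in tI-3 against Con-3 (0.635% and 1.67%). These rank product calls were Hspa9 in Ind-8 against Con-3, Dnaja4 in both comparisons with tI-3, and otherwise genes of the endoplasmic reticulum (ER). Changes of single genes of these lists are named below by their limma calls. The limma counts fell without some arrays. They were 12 in all for Ind-8 against Con-3 without Ind-8 replicate 2, Con-3 replicate 2 or Con-3 replicate 3, 8 for Ind-8 against tI-3 without tI-3 replicate 2, and 15 and 11 for tI-3 against Con-3 without Con-3 replicate 2 and tI-3 replicate 2.

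**Figure D4:**
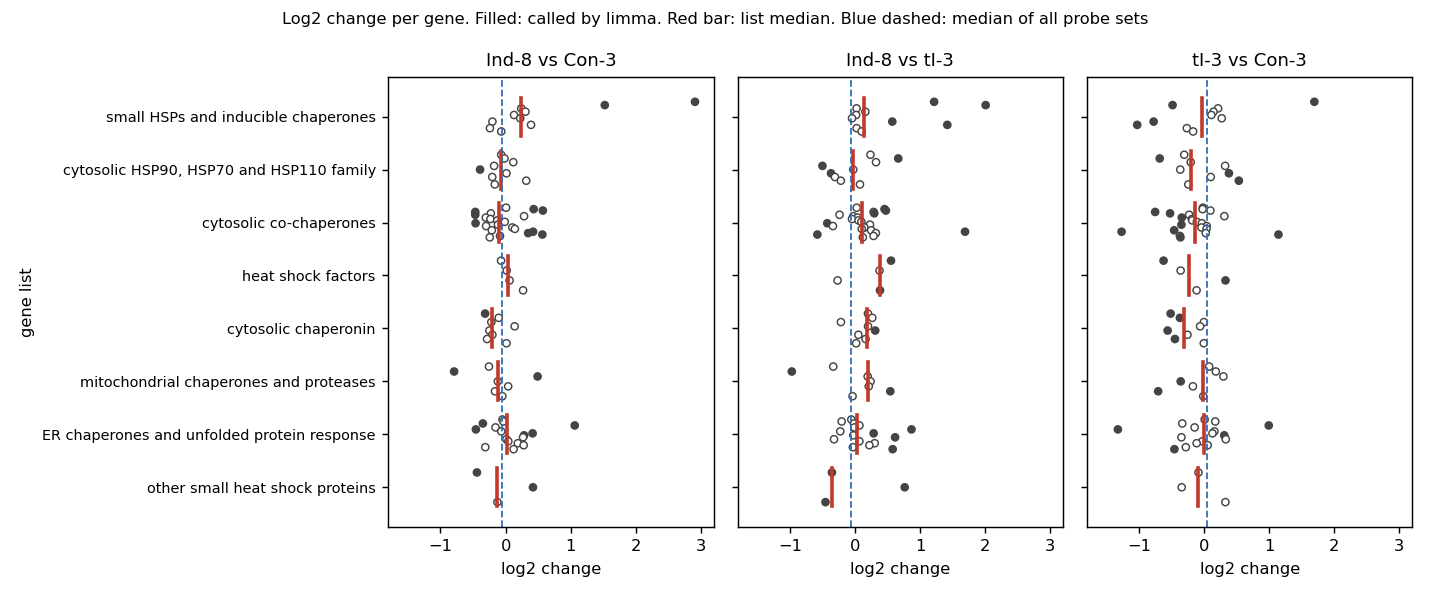
Log2 change of each gene of the small heat shock proteins and inducible chaperones and of 7 further chaperone lists in the 3 comparisons, first-named line minus second, on the x axis, with filled points for limma calls, red bars for list medians and a blue dashed line for the median of all probe sets. Cryab and Hspb1 are the points furthest to the right in the first panel, at 2.91 and 1.52.

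Of the 4 genes for heat shock factors and their binding protein, 0 were called by limma or the rank product in Ind-8 against Con-3, where limma called 10.9% of all probe sets up and 11% down. One was higher at an unadjusted p under 0.05, where 15.5% of all probe sets were. Hsf1, the main activator of the inducible chaperones, was at 8.83, 8.54 and 8.64 in Ind-8, 8.64, 8.78 and 8.79 in Con-3 and 8.12 and 8.12 in tI-3. Both tI-3 arrays were the lowest, as for Hspa1a and Hspa1b but not for Hsph1 or Dnajb1. A link between Hsf1 and these genes was not tested. Hsf1 fell by 0.62 from Con-3 to tI-3 (SE 0.11, limma adjusted p = 0.00252) and was 0.55 higher in Ind-8 than in tI-3 (SE 0.11, limma adjusted p = 0.00511). The rank product called neither difference (pfp = 0.297 and 0.393). With the hybridization covariate the difference between Ind-8 and tI-3 was 0.66 with a limma adjusted p of 0.0692 (range 0.00373 to 0.0692). Hsf4 was 0.33 higher in tI-3 than in Con-3 (limma adjusted p = 0.0313), a call lost without any 1 of the 5 arrays of these lines (adjusted p up to 0.139, in a range of 0.0268 to 0.14 over all alternatives), with the hybridization covariate (0.34, adjusted p = 0.075), with a trended prior (adjusted p = 0.0571) and after renewed quantile normalization (0.22, adjusted p = 0.14). Hsbp1, which binds HSF1 trimers, was 0.39 higher in Ind-8 than in tI-3 (limma adjusted p = 0.0271), a call lost without Ind-8 replicate 2 or 3 or either tI-3 array (range 0.0159 to 0.197), with the hybridization covariate (0.46, adjusted p = 0.197) and after renewed quantile normalization (0.26, adjusted p = 0.115). Hsf2 (3.27 to 3.96) was below the dim end of 4.30 and was not called. Its difference between Ind-8 and tI-3 of 0.38 (limma adjusted p = 0.0588) passed in 4 of 16 alternatives, with a trended prior (0.0458), with the compared lines alone (0.0218), with replicate numbers as a block (0.43, adjusted p = 0.0376) and without Con-3 replicate 1 (0.0133), in a range of 0.0133 to 0.843.

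Outside the 10 genes, Hspb11, Hspb3 and Cryaa were listed as small heat shock proteins, and for Hspb11 this class rests on its symbol alone. Hspb11 was higher in Ind-8 than in Con-3 by 0.42 (limma adjusted p = 0.0308) and than in tI-3 by 0.77 (limma adjusted p = 0.00288). The first call was lost without any 1 of 5 arrays, Ind-8 replicate 1 or 2 or any Con-3 array (range 0.0135 to 0.173). Hspb3 and the lens gene Cryaa, both near the dim end at 4.09 to 4.77 and 4.64 to 5.38, were lower in Ind-8 than in tI-3, by -0.35 and -0.45 (limma adjusted p = 0.037 and 0.0265), and Hspb3 also than in Con-3, by -0.44 (limma adjusted p = 0.0105). Without tI-3 replicate 2 both differences from tI-3 lost the call, at adjusted p of 0.225 and 0.246, as they did without Ind-8 replicate 1 (ranges 0.0188 to 0.77 and 0.0149 to 0.467). Hspb3 lost it also without Ind-8 replicate 2, Con-3 replicate 2 or tI-3 replicate 1. With the hybridization covariate, Hspb11 against tI-3 was 0.53 (adjusted p = 0.177, range 0.00153 to 0.177) and against Con-3 it was 0.31 (adjusted p = 0.173). Hspb3 against Con-3 was then -0.32 (adjusted p = 0.0636, range 0.00773 to 0.0636) and against tI-3 -0.10 (adjusted p = 0.77), and Cryaa against tI-3 was -0.30 (adjusted p = 0.467). After renewed quantile normalization the calls of Hspb3 and Cryaa against tI-3 were also lost (adjusted p = 0.267 and 0.159).

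Among the co-chaperones, Bag3, the partner of Hspb8 and HSP70, rose by 0.57 in Ind-8 against Con-3 (SE 0.13, limma adjusted p = 0.0112), with Con-3 arrays at 9.14 to 9.37 and Ind-8 arrays at 9.70 to 10.17. Its rise was 0.51 with the hybridization covariate and lost its call (adjusted p = 0.0638, range 0.00733 to 0.0638). Bag2 rose by 0.43 (limma adjusted p = 0.00731) and Dnajb4 by 0.57 (limma adjusted p = 0.0146), the last losing its call without Ind-8 replicate 2, Con-3 replicate 2 or Con-3 replicate 3 and with the hybridization covariate (0.42, adjusted p = 0.0961, range 0.00646 to 0.0961). The HSP70-HSP90 adaptor Stip1 fell by 0.47 (limma adjusted p = 0.00245), Bag4 by 0.47 (limma adjusted p = 0.00556) and Fkbp5 by 0.46 (limma adjusted p = 0.0165), the last losing its call without Con-3 replicate 2 (adjusted p = 0.051) and with the hybridization covariate (-0.47, adjusted p = 0.0604, range 0.0106 to 0.0604). Outside the cytosol, the ER gene Dnajb9 rose by 1.06 (SE 0.15, limma adjusted p = 0.000832) and the mitochondrial HSP90 Trap1 by 0.49 (limma adjusted p = 0.004). The mitochondrial HSP70 Hspa9 fell by 0.79 (SE 0.09, limma adjusted p = 0.000228) and the ER gene Dnajc3 by 0.46 (limma adjusted p = 0.0238), the latter losing its call without Ind-8 replicate 2 or 3 or Con-3 replicate 1 (range 0.00971 to 0.0754).

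In tI-3 against Con-3, where 6 of the 69 genes rose and 17 fell, the largest changes in each direction are named. The HSP40 gene Dnaja4 was at 6.53, 6.62 and 6.32 in Ind-8, 6.12, 6.08 and 5.99 in Con-3 and 4.77 and 4.82 in tI-3, and fell by 1.27 from Con-3 to tI-3 (SE 0.11, limma adjusted p = 5.32e-05). Dnajc3 fell by 1.33 (limma adjusted p = 0.000138), Bag4 by 0.75 (limma adjusted p = 0.00063), the mitochondrial protease Clpp by 0.71 (limma adjusted p = 0.00116) and Hspa2 by 0.68 (limma adjusted p = 0.000506). All 5 of these calls were kept in every alternative. Dnajb4 rose by 1.14 (limma adjusted p = 0.000581) and Dnajb9 by 0.99 (limma adjusted p = 0.0018), and both calls were also kept. The smaller rises of Hspa13 (0.53, limma adjusted p = 0.0355, range 0.0131 to 0.19) and Hspa12a (0.38, limma adjusted p = 0.0236, range 0.017 to 0.198) lost theirs without Con-3 replicate 2 or tI-3 replicate 2, among others, Hspa13 also without Con-3 replicate 3 or tI-3 replicate 1 and Hspa12a also without Con-3 replicate 1. With the hybridization covariate Hspa12a was 0.30 (adjusted p = 0.123), after renewed quantile normalization 0.27 (adjusted p = 0.0639), and with replicate numbers as a block Hspa13 was 0.53 (adjusted p = 0.06), each without a call. Hspa12a was at 3.92 to 4.01 in Con-3 and 4.22 and 4.43 in tI-3, around the dim end of 4.30, so the size of its rise is uncertain.

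Between Ind-8 and tI-3, the listed genes that were higher in Ind-8 were led by Dnaja4 (1.69, limma adjusted p = 1.34e-05), Dnajc3 (0.87, limma adjusted p = 0.00163), Hspb11, Hspa2 (0.67, limma adjusted p = 0.000662) and the ER enzyme Pdia4 (0.62, limma adjusted p = 0.00546). Those lower in Ind-8 were led by Hspa9 (-0.97, limma adjusted p = 0.000139), Dnajb4 (-0.58, limma adjusted p = 0.0191), Hspa4l (-0.50, limma adjusted p = 0.0322), Cryaa and Fkbp5 (-0.42, limma adjusted p = 0.0314). With the hybridization covariate the calls of Dnajc3, Pdia4, Dnajb4, Hspa4l and Fkbp5 were lost, as were those of Hspb11 and Cryaa. Dnajc3 was then 0.57 (adjusted p = 0.133, range 0.000495 to 0.133), Pdia4 0.51 (adjusted p = 0.192), Dnajb4 -0.90 (adjusted p = 0.0538), Hspa4l -0.76 (adjusted p = 0.0979) and Fkbp5 -0.44 (adjusted p = 0.288). Without tI-3 replicate 2 the call of Pdia4 was lost at an adjusted p of 0.0612 (range 0.00344 to 0.192). Hspa4l lost its call without either tI-3 array or Ind-8 replicate 2 or 3, Fkbp5 without either tI-3 array or Ind-8 replicate 2 and with the compared lines alone (adjusted p = 0.0526), and Dnajb4 without Ind-8 replicate 1 or tI-3 replicate 1. Their adjusted p ran from 0.0116 to 0.161, 0.00809 to 0.288 and 0.0105 to 0.125 over all alternatives. The 8 subunits of the cytosolic chaperonin, which folds actin and tubulin, had 0 called rises by limma or the rank product against Con-3 in either line (0 also at an unadjusted p under 0.05). By limma 1 of them fell in Ind-8 and 4 in tI-3, where 11% and 15.1% of all probe sets did, and at an unadjusted p under 0.05 4 and 5 were lower, where 17.9% and 20.0% of all probe sets were. No probe set was matched by name for Hsp90aa1, Hspa8, Dnajb5, Hspd1 and Hspb9.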

How the data were processed

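RNA of the 8 cultures was measured on Affymetrix mouse arrays. The authors summarised probes by RefSeq transcript and normalised with RMA, and the deposited values are log2 intensities. Of 22587 deposited probe sets, 64 controls were left out. Transcripts were matched to gene symbols with the GRCm38.p6 RefSeq table, which named 18294 of 22523 probe sets. Differences were tested with limma 3.58.1 in R 4.3.3 on all 8 arrays, with Benjamini-Hochberg adjusted p over all probe sets, and with the rank product, written anew with 100 permutations. Both thresholds were 0.05. Other steps used Python 3.11.15, numpy 2.4.6, pandas 2.3.3 and matplotlib 3.10.9. The number of arrays limits the precision.

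All 10 genes are given. From the other chaperone lists, the 5 largest called rises and falls by limma in each comparison are named, with every gene of the lists of heat shock factors and other small heat shock proteins, and the 5 genes most like Cryab and most like Hspb1. Members and lists were chosen with earlier results of these data known. Alternatives were centring, renewed quantile normalization, a filter at the 25th percentile, a trended prior, counting identical profiles once, keeping control probe sets, fitting only the compared lines, replicate numbers as a block, the hybridization controls as a covariate, another seed, a pfp under 0.01, and leaving out each array.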

Additional observations from a re-analysis of the deposited data

Results flagged for a closer look

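The probe sets for ribosomal RNA of the small subunit are array controls, left out of the comparisons except in an alternative that kept them. On Con-3 replicate 3 they stood above the level of all other arrays, at log2 values of 11.38, 10.97 and 9.53, against 7.67, 5.25 and 6.45 on the next highest array. The same array had the highest hybridization control mean of its line, 9.62. The cause was not tested. Without this array the log2 change of Cryab in Ind-8 against Con-3 was 2.73 in place of 2.91.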

How the results depend on the processing

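Of 10 called differences of the 10 genes, 4 kept their call in each of 17 limma alternatives, namely Cryab in Ind-8 and in tI-3 against Con-3 and Hspb1 in Ind-8 against both lines. Over 170 alternatives the call was lost in 24, and none of these changed sign. Over 340 alternatives to the 20 uncalled differences, 5 gained a call and 14 changed sign. The number of called genes by limma was 2 for Ind-8 against Con-3 (2 to 3 with 1 array left out, 4 with replicate numbers as a block), 4 for Ind-8 against tI-3 (2 to 4, and 1 with the hybridization covariate) and 4 for tI-3 against Con-3 (1 to 4, and 2 with that covariate). By rank product these were 2 (2 to 2), 3 (1 to 2, and 1 at a pfp under 0.01) and 1 (0 to 1, and 0 at a pfp under 0.01). The replicate block changed no count in the comparisons with tI-3 (4 and 4). The numbers may not pair: deviations of Ind-8 and Con-3 arrays of 1 number had r of 0.27, 0.0286 and 0.381, and 4 of 6 arrays were most like their own number. For replicates 1 and 2 of tI-3, r was 0.0093 and -0.225 with Ind-8 and 0.205 and 0.0424 with Con-3. The covariate separates both tI-3 arrays from all 3 Ind-8 arrays, so it cannot be told apart from that comparison within these lines, and with it 668 probe sets were higher and 352 lower in Ind-8 than in tI-3, against 3509 and 3500. A lone tI-3 array is assumed to vary like the other lines.

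Differences that changed sign were called neither before nor after. With the covariate they were Hspb2 (-0.20), Hspb6 (-0.13), Hsph1 (-0.090) and Impdh1 (0.071) in Ind-8 against tI-3, Hsf2 (-0.12) in Ind-8 against Con-3 and Mt1 (0.0020) in tI-3 against Con-3. With renewed quantile normalization they were Hsph1 (-0.10), Dnajb1 (-0.020) and Mt1 (-0.089) in Ind-8 against tI-3, and Hspb7 (-0.015), Hsbp1 (0.0094) and Mt1 (0.20) in tI-3 against Con-3. With 1 array left out the log2 change in Ind-8 against tI-3 ran from -0.043 to 0.094 for Hspb2, -0.076 to 0.12 for Hspb7, -0.13 to 0.045 for Hspb8, -0.073 to 0.11 for Hsph1, -0.0009 to 0.21 for Dnajb1 and -0.13 to 0.042 for Impdh1. In Ind-8 against Con-3 it ran from -0.065 to 0.17 for Hsf2 and -0.013 to 0.16 for Impdh1, and in tI-3 against Con-3 from -0.26 to 0.044 for Mt1. The cause was not tested. Dim probe sets such as Hspb7 and Hsf2 lie near background, which limits what their values can show.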
